A study of Mus musculus with 32 samples.

Results

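DBA/2J is an inbred mouse strain whose hippocampal RNA was measured beside that of 7 other inbred strains. Its arrays were chosen by the strain in their titles and number 4 of the 32 arrays of the series, and the other 28 arrays hold 4 each of C57BL/6J, A/J, SJL/J, BALB/cByJ, FVB/NJ, C3H/HeJ and the strain titled hippocampus_129S1SvImJ. All mice were inbred and untreated, and their age and sex were not among the labels used here. Each strain was 1 pool of RNA from 6 mice, turned into 1 cDNA. From it cRNA was made in 2 separate preparations, and each preparation was read on 2 Affymetrix U74Av2 arrays, short-oligonucleotide arrays that give 1 signal for each probe set. The comparison asks which hippocampal transcripts set DBA/2J apart from strains that also differ from it in behaviour. Since a strain is 1 pool, the p-values below measure how preparations and hybridisations vary, and say nothing of how animals vary.

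DBA/2J is among the oldest inbred strains and carries coat-colour alleles at Myo5a (dilute) and Tyrp1 (brown). It is known for sound-induced seizures when young, for a pigmentary form of glaucoma, and for weaker performance than C57BL/6J in learning tasks that depend on the hippocampus. With C57BL/6J it is a parent of the BXD recombinant inbred lines. The hippocampus holds excitatory pyramidal and granule neurons, whose synapses use AMPA and NMDA glutamate receptors and the kinase CaMKII for lasting changes in strength, and a smaller number of GABA-releasing interneurons.

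The arrays of DBA/2J resembled each other more than they resembled the other strains. Over the tested probe sets, the log2 signals of the 2 arrays of a preparation correlated at 0.944 and 0.971, arrays of different DBA/2J preparations at 0.939 to 0.954, and DBA/2J arrays with those of other strains at 0.919 to 0.925 on average. Median signals were 35.0 to 39.9 on the DBA/2J arrays and 29.4 to 43.7 on the others, and the trimmed means of all arrays lay between 100.05 and 100.07. A set of sense-strand control probe sets read 5.28 to 5.64 on the log2 scale on the DBA/2J arrays. On the other arrays it ran between 4.91 and 7.84, and 11 of them, none of DBA/2J, C57BL/6J or hippocampus_129S1SvImJ, were at 6.95 or more. Without those 11 arrays the calls given below for Ugdh, Nrgn, Ppp1cb, Kcnj9, Psmd11, Penk and Pam were lost. That of a Dusp8 probe set not given below was lost too (limma, adjusted p of 0.0552 to 0.203 over all of these). Array 2 of FVB/NJ carries in its title a day that other strains have on an array of the other preparation. It correlated at 0.907 with the other array of the preparation its number gives and at 0.972 on average with the arrays of the other preparation, and it was kept as the series design numbers it. Without it 86 probe sets passed the test described below, in place of 107, and among genes named below Cplx2, Nrgn, Ppp1cb, Tenm1, Cpsf2, Ugdh, Psmd11, Penk and 1 probe set of Rfk lost their calls (adjusted p of 0.0504 to 0.160).

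Of 17 tested markers of hippocampal neurons, 14 were below the mean of the other strains in DBA/2J, and the median difference was -0.33 on the log2 scale, against 0.05 over all 5660 tested genes. The other 3 were above it, Neurod6 most at 0.43. The signals of the 17, summed and put on the log2 scale, came to 13.77 and 13.73 in the 2 DBA/2J preparations, against 13.82 to 14.39 in the 14 preparations of the other strains, so that both lay below all others. The sum for 11 interneuron markers was 11.83 and 11.85 in DBA/2J and 11.77 to 12.11 in the others, and that for 16 astrocyte markers was 14.27 and 14.16 in DBA/2J and 13.93 to 14.50 in the others. Sums for oligodendrocytes, microglia, vessels, choroid plexus with meninges, red cells and neighbouring brain regions also lay within the range of the others. Of 11 oligodendrocyte markers, 10 were likewise below the mean of the other strains, by less, with a median difference of -0.05. In bulk RNA, fewer cells of a type and less RNA per cell cannot be told apart. The presynaptic protein Snap25 and the neuronal protein Ncdn read 11.85 ± 0.05 and 11.76 ± 0.16 in DBA/2J (SD, n = 2 preparations), with strain means of 11.90 to 12.24 and 11.87 to 12.19 elsewhere. The granule-cell factor Prox1 gave a weak signal in DBA/2J (4.59 ± 0.15), and in the other strains too (4.92 to 5.67). Of the 17, Camk2a and Nrgn passed the test described next, against 1.29% of all tested genes. With the preparation number as a block 5 of the 17 passed, against 4.03% of all tested genes, and the further ones, all lower, were Neurod2, Neurod1 and Wfs1 (adjusted p = 0.0038, 0.0073 and 0.026).

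**Figure D1:**
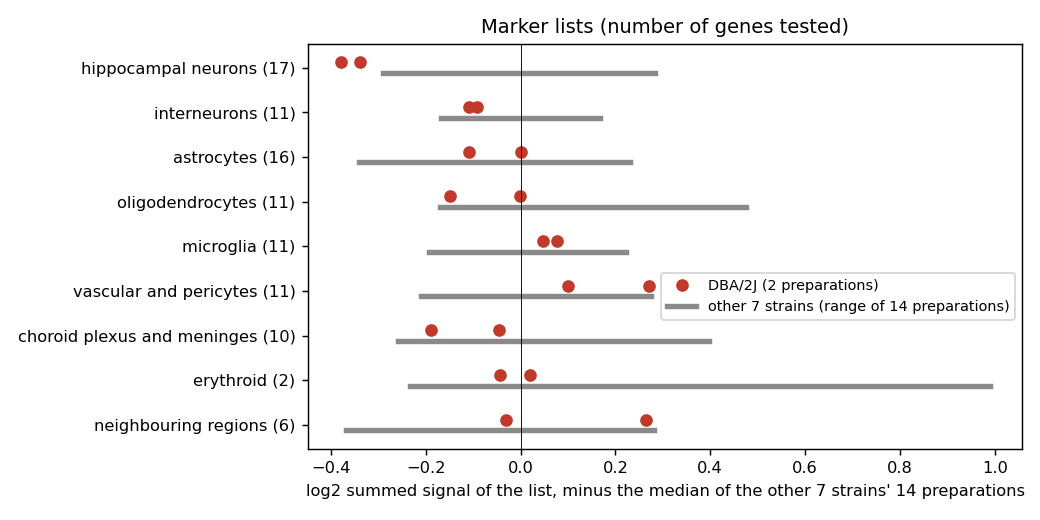
Summed log2 signal of the tested markers of 9 cell types or regions, minus the median of the 14 preparations of the other 7 strains (x axis, log2). Red circles are the 2 DBA/2J preparations and grey bars the range of the other 14. For hippocampal neurons both circles lie left of the bar, at 13.77 and 13.73 against 13.82 to 14.39, and for the other lists the circles fall within the bar's range.

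DBA/2J differed from the mean of the 7 other strain means for 107 of 7453 tested probe sets, which is 1.44% (limma's moderated test on the 16 preparations, Benjamini-Hochberg adjusted p under 0.05). Of these, 36 were higher in DBA/2J (0.483% of those tested) and 71 were lower (0.953%). The median size of a difference was 0.93 among the higher ones and 1.11 among the lower ones, and 15 of the higher and 38 of the lower were apart by 2-fold or more. All 36 and all 71 had the same sign in both preparations, and 35 of 36 and 71 of 71 on each of the 4 array days that carried a DBA/2J array, when set against the other strains' arrays of that day. Both DBA/2J preparations lay outside all 14 others for 21 of the higher and 31 of the lower ones, where 1.97% of all tested probe sets had both above and 1.15% both below. The calls carried 1 gene symbol in 95 cases, for 85 genes.

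With the preparation number as a block, 318 probe sets passed (4.27%; 133 higher, 185 lower), and all 107 were among them. Without DBA/2J preparation 1 the count was 23, and without DBA/2J preparation 2 it was 43. Of the 107, 94 kept their call without any 1 preparation of another strain, 76 without any 1 strain, 66 without any 1 array, and 19 under each of the 66 alternatives that tested them. Those 19 include the probe sets given below for AI506816, Grin2b, Slc32a1, Irs2, Ank3, Erdr1 and Atp2b2 and the first one given for Ctse and for Pdxdc1, and no sign changed for any of the 107.

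**Figure D2:**
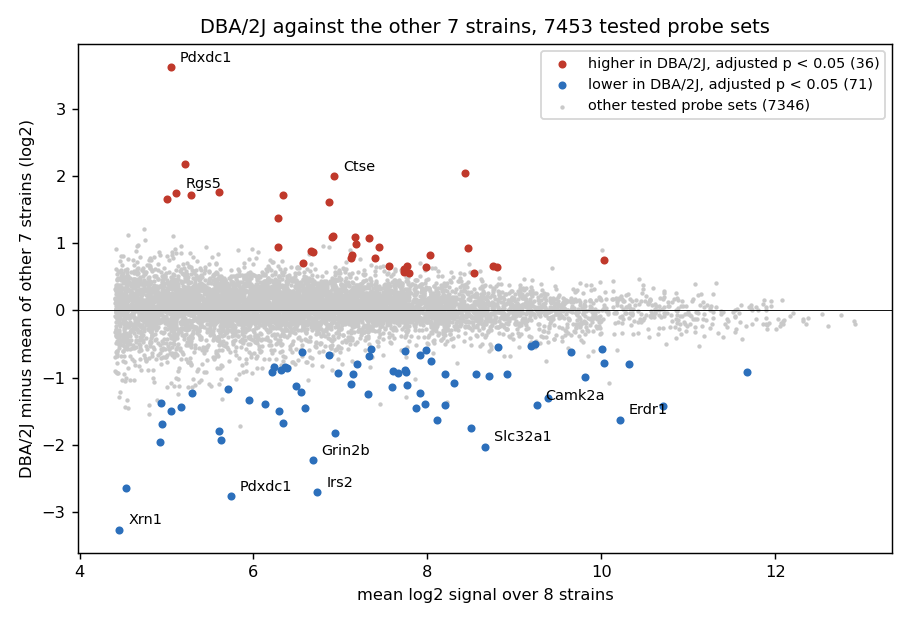
Difference between DBA/2J and the mean of the other 7 strains (y axis, log2) against the mean log2 signal over the 8 strains (x axis) for the 7453 tested probe sets. Red points are the 36 probe sets higher in DBA/2J and blue points the 71 lower ones at an adjusted p under 0.05. Xrn1 lies lowest at -3.26 and at the weak end of the signal range, and 1 probe set of Pdxdc1 lies highest at 3.62.

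Among glutamate receptor genes, 2 of 11 tested were lower in DBA/2J and 0 higher, against 1.29% of all tested genes called in either direction (0.813% lower, 0.477% higher), when the probe set of highest signal stands for a gene. Grin2b, which encodes the GluN2B subunit of the NMDA receptor, had signals of 23.4, 16.8, 36.5 and 34.2 on the 4 DBA/2J arrays, against 81.3 to 205.1 with a median of 122.8 on the 28 other arrays. Every DBA/2J array lay below every other array. On the log2 scale it read 4.73 ± 0.59 in DBA/2J (SD, n = 2) and 6.50 to 7.36 elsewhere, a difference of -2.23 ± 0.19 (SE), or 4.71-fold lower (limma, adjusted p = 1.32e-05). Within the 4 days the difference ran from -3.03 to -1.53. Grin2a, which encodes the GluN2A subunit, had signals of 48.0, 62.5, 47.8 and 41.7 in DBA/2J, against 56.8 to 122.4 (median 88.0) elsewhere. Of its 4 DBA/2J arrays, 3 lay below all others, and the difference was -0.84 ± 0.16 (adjusted p = 0.0131). The main AMPA receptor subunits read close to the other strains: Gria1 was 10.52 in DBA/2J against a mean of 10.62, and Gria2 11.32 against 11.38 (adjusted p = 0.87 and 0.95). The remaining 7 genes differed by -0.44 (Gria3) to 0.35 (Grm8), and none passed. The lower summed level of hippocampal neuron markers in DBA/2J, given above, moved with the lower calls of these receptors and of the plasticity genes below, 2 of which are among its markers, and its part in them was not tested.

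Among genes of the GABA system, 1 of 12 tested was lower and 0 higher, against 0.813% and 0.477% of all tested genes. Slc32a1, the transporter that loads GABA and glycine into synaptic vesicles, had signals of 108.9, 95.8, 123.3 and 153.7 in DBA/2J, against 254.7 to 686.6 (median 490) on the other arrays. All 4 DBA/2J arrays were below all 28 others. The log2 level was 6.89 ± 0.30 in DBA/2J and between 8.68 and 9.12 in each of the other 7 strains, and the difference was -2.03 ± 0.17 (4.09-fold lower, adjusted p = 9.06e-06). On the 4 days it ran from -2.15 to -1.69. The GABA-synthesising enzymes gave no such value: Gad1 read 9.96 in DBA/2J against 9.64 elsewhere (0.32 ± 0.10, adjusted p = 0.217), and Gad2 5.44 against 5.58 (-0.14 ± 0.24, adjusted p = 0.91). Interneuron markers other than Slc32a1 differed by -0.19 (Sst) to 0.57 (Reln), and 0 of 10 passed, while Reln did with the preparation block (adjusted p = 0.0458).

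**Figure D3:**
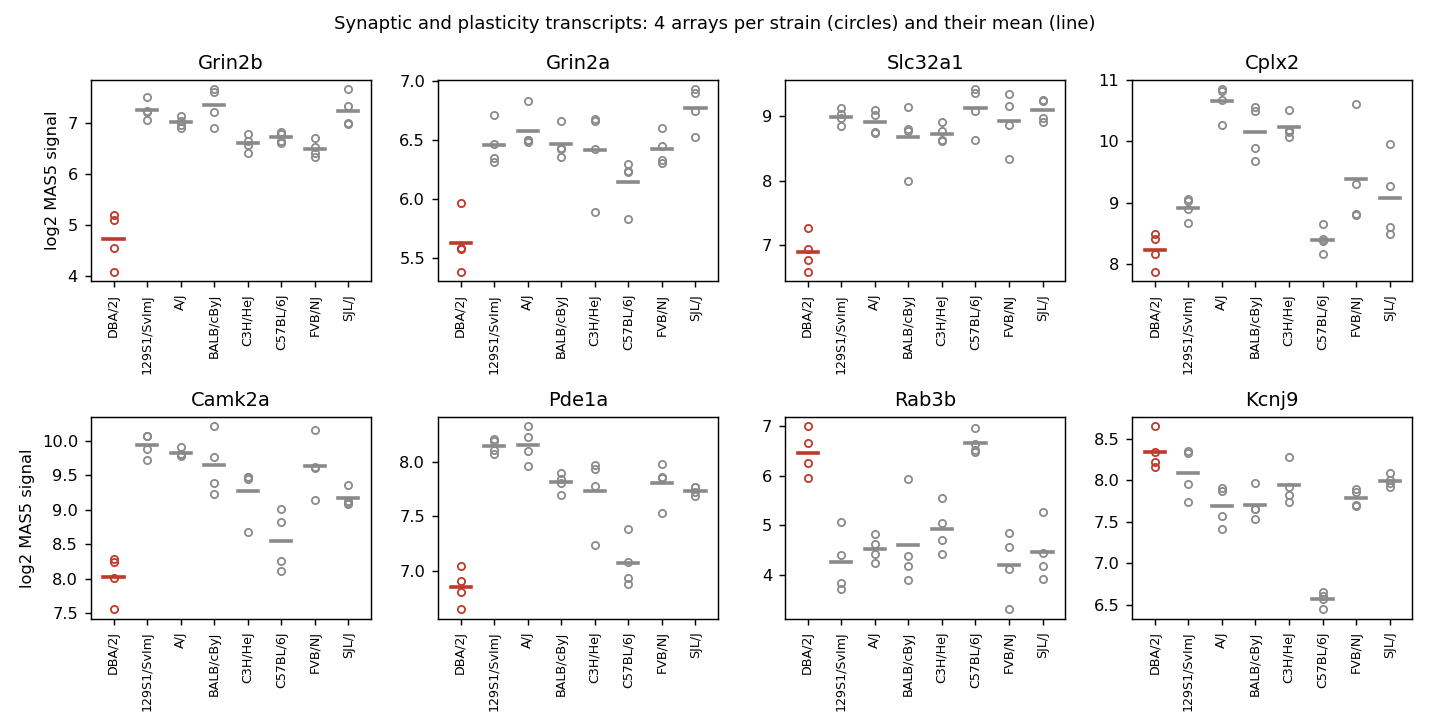
Log2 signal (y axis) of 8 synaptic and plasticity transcripts on the 4 arrays of each strain (circles) with the strain mean (line), DBA/2J in red at the left and the other 7 strains in grey. Grin2b and Slc32a1 separate DBA/2J from all other arrays, Cplx2, Camk2a and Pde1a have C57BL/6J next above DBA/2J, and for Rab3b DBA/2J (6.46) and C57BL/6J (6.65) stand above the other strains.

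In the list of plasticity kinases and their partners, 3 of 42 tested genes were lower and 1 was higher. The shares of all tested genes were 0.813% and 0.477%, and the list's median difference was -0.04. With the preparation block 6 passed, against 4.03% of all tested genes, and without the 11 arrays with high sense-strand controls 2 passed, against 1.17% of all. Camk2a, the alpha subunit of CaMKII, had signals of 187.9, 256.7, 310.8 and 303.7 in DBA/2J, against 275.8 to 1183.6 (median 710) elsewhere. The groups overlapped slightly, and the log2 level was 8.02 ± 0.34 in DBA/2J, 8.55 ± 0.52 in the nearest strain, C57BL/6J, and up to 9.93 in the rest. The difference was -1.41 ± 0.21 (2.66-fold lower, adjusted p = 0.00195), and a second probe set gave -0.98 ± 0.14 (adjusted p = 0.00154). Pde1a, a calcium- and calmodulin-dependent phosphodiesterase of cyclic nucleotides, had signals of 111.7, 99.8, 120.0 and 131.6 in DBA/2J, against 117.5 to 322.8 (median 231). Its log2 level was 6.85 ± 0.18 in DBA/2J, 7.07 ± 0.09 in C57BL/6J and up to 8.16 in the others (-0.93 ± 0.13, adjusted p = 0.00173), while a second probe set at a weaker signal did not pass. Nrgn, the calmodulin-binding neurogranin of dendrites, was lower by less, at 9.51 ± 0.17 in DBA/2J and 9.49 to 10.50 elsewhere (-0.57 ± 0.13, adjusted p = 0.0385), and its call was lost under 4 of 11 alternatives of processing. Ppp1cb, a catalytic subunit of protein phosphatase 1, was higher (9.03 ± 0.10 in DBA/2J, 8.20 to 8.75 elsewhere, 0.56 ± 0.13, adjusted p = 0.0409) and likewise lost its call under 4 of 11. Ntrk2, the receptor of BDNF, read 4.33 in DBA/2J against 6.05 elsewhere (-1.72 ± 0.44), with an adjusted p of 0.086, and passed with the preparation block (adjusted p = 0.0073).

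Among 30 tested genes of vesicle release, 1 was lower and 1 higher, against 0.813% and 0.477% of all tested genes. Cplx2, a complexin that binds the SNARE complex, had signals of 287.8, 235.1, 342.8 and 360.7 in DBA/2J, against 286.4 to 1852.2 (median 725). Its log2 level was 8.24 ± 0.31 in DBA/2J, 8.40 in C57BL/6J and up to 10.65 in the other strains (-1.31 ± 0.24, adjusted p = 0.0119). Rab3b, a small GTPase of secretory vesicles, ran the other way. Its signals were 76.0, 61.7, 100.3 and 127.4 in DBA/2J, against 9.9 to 123.9 (median 22.7), and it read 6.46 ± 0.51 in DBA/2J, 6.65 ± 0.10 in C57BL/6J and 4.21 or more in the rest (1.66 ± 0.32, adjusted p = 0.015). The calcium sensor Syt1 (10.36 in DBA/2J against 9.93, adjusted p = 0.18), the related Rab3a (5.73 against 6.76, adjusted p = 0.22) and the remaining 26 genes did not pass. With the preparation block 4 of the 30 did, against 4.03% of all tested genes, Syt1 among them (adjusted p = 0.0426). DBA/2J and C57BL/6J were not tested against each other here.

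Among 44 tested ion channel genes 1 was called, against 1.29% of all tested genes. This was Kcnj9, a subunit of G-protein-gated potassium channels (GIRK3). It read 8.34 ± 0.22 in DBA/2J, 6.57 ± 0.09 in C57BL/6J and up to 8.09 elsewhere (0.66 ± 0.14, adjusted p = 0.0238). Without C57BL/6J the difference was 0.47 and the call was lost (adjusted p = 0.152). It was also lost without the 11 arrays with high sense-strand controls and with arrays centred on their median (adjusted p = 0.0975 and 0.0835). Its second probe set ran in the opposite direction without passing. With the preparation block 5 of the 44 passed, against 4.03% of all tested genes. Among 18 genes of WNK signalling and ion transport, Atp2b2, a calcium pump of the plasma membrane, was lower (6.96 ± 0.06 in DBA/2J, 6.81 ± 0.05 in C57BL/6J and up to 8.36 elsewhere, -0.89 ± 0.11, adjusted p = 0.000569). Wnk1, a kinase that controls chloride cotransporters, was lower on 2 of 3 tested probe sets. On the first its signals were 6.3, 5.5, 9.6 and 1.4 in DBA/2J, against 8.2 to 65.4 (median 30.9), a difference of -2.65 ± 0.36 (adjusted p = 0.00101). Adding 16 or 64 to the signals brought it to -1.11 or -0.45. On the second the difference was -1.93 ± 0.36 (adjusted p = 0.0115), a call lost with 64 added (adjusted p = 0.0698). The remaining and brightest one had signals of 245.0, 220.4, 228.8 and 258.0 in DBA/2J, against 156.2 to 338.4, with a difference of -0.01.

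Among 34 genes of insulin and IGF signalling, Irs2 alone passed, against 1.29% of all tested genes. Irs2, an adaptor that couples the insulin and IGF receptors to PI3-kinase, had signals of 12.2, 15.7, 32.6 and 29.0 in DBA/2J, against 18.6 to 208.3 with a median of 158. It read 4.37 ± 0.81 in DBA/2J, 5.79 in C57BL/6J and up to 7.40 in the other strains (-2.70 ± 0.30, 6.52-fold lower, adjusted p = 0.000178), and the difference ran from -3.70 to -1.52 over the 4 days. Adding 16 or 64 to the signals before taking log2 brought it to -2.03 or -1.24, with adjusted p of 9.32e-05 and 0.000108. Socs2 (-0.59, adjusted p = 0.073, and 0.0185 with the preparation block) and Igfbp6 (0.90, adjusted p = 0.29) came next in either direction.

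Of 28 genes of RNA turnover, 1 was lower on its brightest probe set, against 0.813% of all tested genes. Xrn1, the cytoplasmic 5′-to-3′ exoribonuclease, had signals of 1.3, 1.9, 12.2 and 2.8 in DBA/2J, against 6.0 to 62.4 (median 31.2) elsewhere, and 3 of the 4 DBA/2J arrays lay below all others. The difference of -3.26 ± 0.47 (adjusted p = 0.00175) rests on signals near the floor of 1 and came to -1.21 or -0.48 with 16 or 64 added to the signals (adjusted p = 0.0136 and 0.0439). Ddx6, an RNA helicase of the decapping machinery, had signals of 34.1, 37.4, 36.4 and 59.2 on 1 of 3 probe sets in DBA/2J, against 71.7 to 257.8 (median 142), and was lower there (-1.82 ± 0.23, adjusted p = 0.000533) and on another (-1.68 ± 0.26, adjusted p = 0.0029). Its brightest probe set gave 0.03. Cpsf2, a subunit of the complex that cuts and polyadenylates pre-mRNA, read 9.9, 17.5, 7.9 and 10.7 in DBA/2J, against 13.2 to 55.7 (-1.70 ± 0.31, adjusted p = 0.0115), and a second probe set gave -0.17. The call on Cpsf2 was lost with 64 added (adjusted p = 0.0537).

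The 12 called probe sets with 1 gene symbol, the largest positive differences and both preparations above all 14 others stood for 10 genes. Ctse, the intracellular aspartic protease cathepsin E, had signals of 449.8, 422.3, 376.2 and 395.1 in DBA/2J, against 60.2 to 200.9 (median 104) elsewhere. All 4 DBA/2J arrays were above all 28 others. It read 8.68 ± 0.13 in DBA/2J and 6.17 to 7.30 elsewhere, a difference of 2.00 ± 0.14 (3.99-fold higher, adjusted p = 1.99e-06) that ran from 1.94 to 2.03 over the 4 days. Its second probe set gave 1.61 ± 0.32 (adjusted p = 0.0157). The first probe set of Ctse ends in _f_at, a suffix that marks possible reading of further transcripts, and the second in _i_at. A suffix of _s_at, _f_at, _i_at, _r_at or _g_at stood on 22 of the 107 called probe sets. Those called for Erdr1 (_f_at), Penk (_f_at), Ank3 (_s_at), Pde1a (_s_at) and AI506816 (_r_at) are among them, as are both called for Ddx6. Of 35 lysosomal genes Ctse was the only one called, against 1.29% of all tested genes. Cathepsin S (Ctss) read 8.76 in DBA/2J against 8.33 (adjusted p = 0.11, and 0.0186 with the preparation block).

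Rgs5, a regulator of G-protein signalling and a marker of pericytes, had signals of 88.5, 92.4, 94.4 and 127.0 in DBA/2J, against 9.0 to 93.3 (median 23.7). It read 6.64 ± 0.20 in DBA/2J and 6.33 in the nearest strain, BALB/cByJ, and the difference was 1.74 ± 0.28 (3.34-fold higher, adjusted p = 0.00356). A second probe set gave 1.21 ± 0.32 (adjusted p = 0.097). It was the sole call among 11 vascular markers and among 29 RGS and G-protein genes, against 1.29% of all tested genes. The other pericyte markers Pdgfrb (-0.34, adjusted p = 0.74), Notch3 (-0.30) and Vtn (0.35) did not pass, and the summed vascular level of 9.49 and 9.66 in DBA/2J lay within 9.18 to 9.67 of the others.

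Mgst3, a microsomal glutathione transferase, had signals of 497.8, 605.8, 705.4 and 692.6 in DBA/2J, against 223.0 to 477.3 (median 330.5), so that all 4 DBA/2J arrays exceeded all others (0.93 ± 0.13, adjusted p = 0.00101). It was the 1 called gene of 44 antioxidant and glutathione genes, against 1.29% of all tested genes. Rfk, riboflavin kinase, which makes FMN from vitamin B2, had signals of 318.8, 293.3, 321.4 and 308.4 on 1 of 3 probe sets in DBA/2J, against 93.0 to 220.3, again without overlap (0.95 ± 0.18, adjusted p = 0.0136). Another probe set gave 0.78 ± 0.16 (adjusted p = 0.0229) and the remaining one 0.19, which did not pass. Ugdh, which makes UDP-glucuronate, was higher by 0.83 (adjusted p = 0.0385), Kif5b, a heavy chain of kinesin-1, by 1.10 ± 0.23 (adjusted p = 0.0247), and Phtf1 by 0.88 ± 0.17 (adjusted p = 0.0126). Kif5b read 7.87 ± 0.01 in DBA/2J and 7.77 in C57BL/6J, and Phtf1 7.43 ± 0.07 in DBA/2J and 7.27 in BALB/cByJ. For each of them the highest array of another strain (298.6 and 209) exceeded every DBA/2J array. Cap1, which binds actin and adenylyl cyclase, was higher by 0.86 ± 0.15 (adjusted p = 0.00737). Its level was 7.44 ± 0.01 in DBA/2J, 4.48 in C57BL/6J and up to 7.06 in the rest, and without C57BL/6J the difference was 0.52 and the call was lost (adjusted p = 0.132). AI506816 was higher by 1.72 ± 0.21 (adjusted p = 0.000498).

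Of 26 genes of antigen presentation and the interferon response, 2 were higher and 0 lower, against 0.477% and 0.813% of all tested genes. H2-D1, a class I histocompatibility gene, had signals of 248.0, 304.0, 194.0 and 215.8 in DBA/2J, against 54.7 to 202.5 (median 113), and 3 of 4 DBA/2J arrays were above all others (1.11 ± 0.14, adjusted p = 0.000635). A second probe set of H2-D1 gave 0.28 (adjusted p = 0.65). H2-K1 had signals of 225.6, 191.3, 240.9 and 237.6 in DBA/2J, against 85.8 to 194.9 (0.77 ± 0.14, adjusted p = 0.00763), and its second probe set gave -0.31. Class I genes are near copies of each other, and the probe sets called here end in _f_at, so which gene they read is uncertain. Interferon-induced genes gave values such as 0.40 for Irf7 (adjusted p = 0.8) and 0.65 for Ifitm3 (adjusted p = 0.62). Of the 26, 16 were above the mean of the other strains and 10 below, the lowest being H2-DMb1 at -1.22, which did not pass. With the preparation block 3 of the 26 passed, against 4.03% of all tested genes. H2-M3 was among them and was lower (-1.17, adjusted p = 0.0206).

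**Figure D4:**
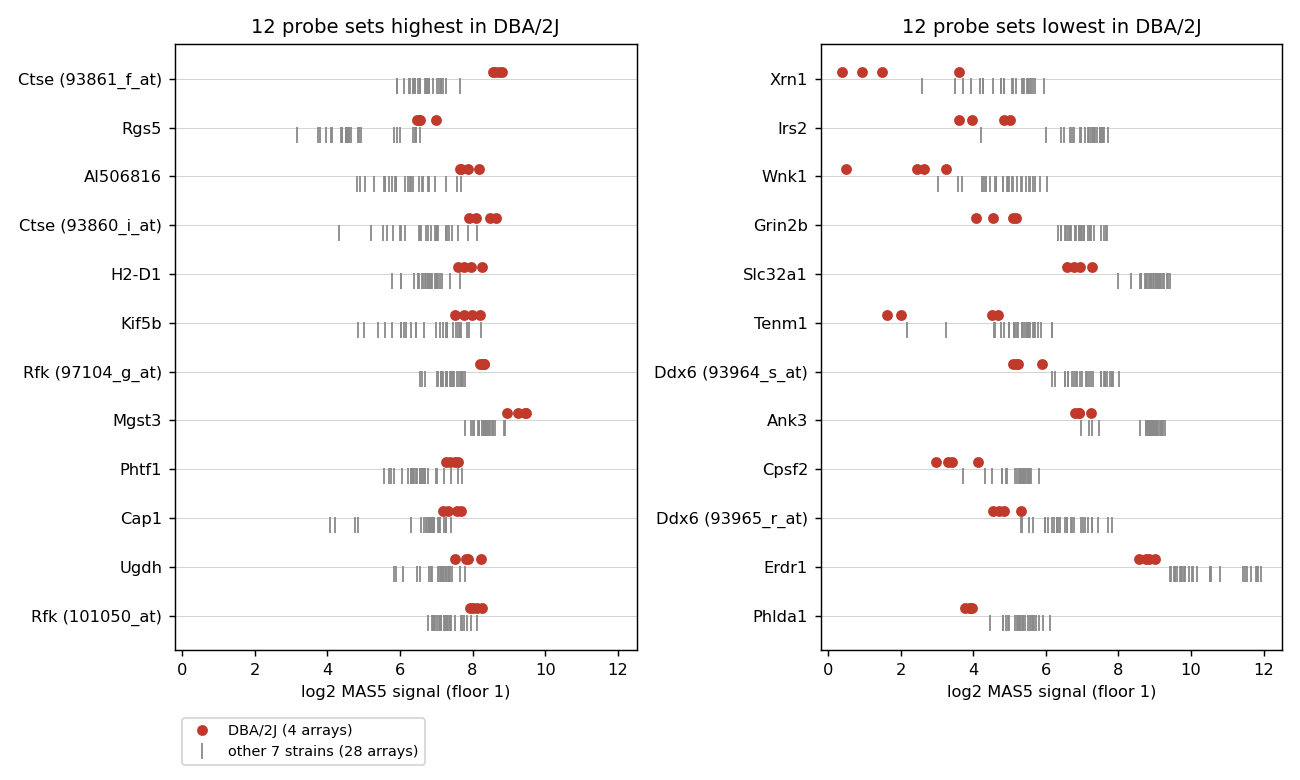
Log2 MAS5 signal (x axis, floor 1) of the 12 probe sets with the largest positive and the 12 with the largest negative difference among called probe sets with 1 gene symbol and both DBA/2J preparations outside all 14 others. Red circles are the 4 DBA/2J arrays and grey ticks the 28 arrays of the other strains. Circles and ticks do not overlap for Mgst3, Grin2b, Slc32a1, Erdr1, Phlda1 and the upper of the 2 rows each of Ctse, Rfk and Ddx6.

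The 12 probe sets chosen likewise for the largest negative differences stood for 11 genes, of which Xrn1, Irs2, Wnk1, Grin2b, Slc32a1, Ddx6 and Cpsf2 are given above. Ank3, the scaffold ankyrin-G of the axon initial segment, had signals of 111.4, 150.6, 119.8 and 121.4 on 1 of 2 probe sets in DBA/2J, against 126.4 to 625.2 (median 490). It read 6.97 ± 0.07 in DBA/2J, 7.23 ± 0.14 in C57BL/6J and up to 9.14 in the rest (-1.76 ± 0.12, 3.38-fold lower, adjusted p = 1.6e-06), while the other probe set of Ank3 gave -0.20 and did not pass. Erdr1, named for a role in erythroid differentiation, had signals of 379.2, 510.5, 429.6 and 455.8 in DBA/2J, against 691.9 to 3928.6 (median 1052), with no overlap (-1.63 ± 0.11, adjusted p = 1.6e-06). Its second probe set gave -0.69 and did not pass. Phlda1, a pleckstrin-homology protein, had signals of 15.1, 13.8, 15.7 and 15.1 in DBA/2J, against 22.2 to 69.6, with no overlap (-1.44 ± 0.22, adjusted p = 0.0029). Tenm1, a teneurin of neuronal membranes, had signals of 4.0, 25.7, 22.8 and 3.1 in DBA/2J, against 4.5 to 71.7, and the difference of -1.96 ± 0.34 (adjusted p = 0.00759) varied from -3.67 to -0.10 between days. Its call was lost with 64 added to the signals (adjusted p = 0.0537).

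Genes of peptide handling gave 3 higher and 0 lower calls of 22, against 0.477% of all tested genes higher and 0.813% lower. Pam, the enzyme that amidates peptides, had signals of 159.8, 72.3, 225.6 and 139.1 in DBA/2J, against 4.6 to 213.4 (median 32.1). It read 7.11 ± 0.51 in DBA/2J, 7.28 in hippocampus_129S1SvImJ and 3.30 or more in the others (2.17 ± 0.45, adjusted p = 0.0236). Scg5, a chaperone of the prohormone convertase PC2, was higher by 0.66 ± 0.13 (adjusted p = 0.0134). Its level of 9.33 ± 0.04 in DBA/2J was not particular to it, with 9.30 in SJL/J, 9.26 in A/J, 9.17 in FVB/NJ and 8.99 in BALB/cByJ. Lower levels were those of C57BL/6J (7.75), hippocampus_129S1SvImJ (7.86) and C3H/HeJ (8.32). Penk, the enkephalin precursor, was higher by 0.62 ± 0.14 on 1 of 2 probe sets (8.27 ± 0.27 in DBA/2J against 6.92 to 8.08, adjusted p = 0.0385). Penk is also abundant in the striatum, and the summed level of 6 markers of neighbouring regions, Penk among them, was 9.54 and 9.24 in DBA/2J and 8.91 to 9.56 elsewhere. The part of neighbouring tissue in the value was not tested. Without the 11 arrays with high sense-strand controls 1 of the 22 passed, against 1.17% of all tested genes, and with the preparation block 4 did, against 4.03%.

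Of the proteasome's 37 tested genes, 1 was lower and 1 higher, against 0.813% and 0.477% of all tested genes. Under the preparation block 4 of the 37 passed, against 4.03% of all tested genes. Psmb6, a catalytic beta subunit, had signals of 84.4, 95.9, 141.0 and 119.9 in DBA/2J, against 172.2 to 380.4 (median 283.5), with no overlap (-1.39 ± 0.17, 2.62-fold lower, adjusted p = 0.000498). Psmd11, a subunit of the regulatory particle, was higher by 0.58 ± 0.13 on 1 of 3 probe sets (adjusted p = 0.0446). This call was lost under 4 of 11 alternatives of processing. Its level was 8.24 ± 0.05 in DBA/2J, 8.29 in C57BL/6J and 7.31 to 7.68 in the rest. The other 2 probe sets of Psmd11 gave 0.51 and 0.11 and did not pass. Among 67 respiratory chain genes, 2 were lower and 0 higher, against the same shares of all tested genes, and 3 passed under the block. The lower ones were Ndufa7 of complex I (-0.78, adjusted p = 0.0119) and the ATP synthase subunit Atp5mpl (-0.62 ± 0.10, adjusted p = 0.00384). Ndufa7 was not lowest in DBA/2J, at 9.35 ± 0.14 there, 9.18 in BALB/cByJ and 9.99 to 10.52 in the rest. No gene was called among 27 ribosomal protein genes, 53 chaperones, 26 immediate early genes or 21 genes of monoamine and acetylcholine signalling, against 1.29% of all tested genes. With the preparation block 1, 1, 1 and 0 were called, against 4.03% of all.

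Of the 11 genes listed because DBA/2J alleles of them are known from textbooks, 7 are on the array and 3 had signals high enough to be tested. Myo5a, the motor that the dilute allele changes, read 5.08 ± 0.17 in DBA/2J and 4.73 to 5.52 elsewhere (-0.23 ± 0.31, adjusted p = 0.89). Glo1, a glyoxalase whose copy number differs between inbred strains, read 9.40 ± 0.04 in DBA/2J and 8.30 to 10.06 elsewhere (0.24 ± 0.11, adjusted p = 0.472). Alad, of heme synthesis, read 7.89 ± 0.15 in DBA/2J and 6.33 to 8.03 elsewhere (0.39 ± 0.15, adjusted p = 0.37), and passed with the preparation block (adjusted p = 0.0287).

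For many calls C57BL/6J was the strain nearest to DBA/2J, meaning the one at the same end of the other 7. It was so for 36 of the 71 lower probe sets (50.7%), against 30.0% of all tested probe sets with a difference under 0, and for 14 of the 36 higher ones (38.9%), against 21.1% of all with a difference over 0. With the preparation block the shares were 84 of 185 (45.4%) and 61 of 133 (45.9%). Without the 11 arrays with high sense-strand controls they were 39 of 70 (55.7%, against 35.5% of all) and 12 of 28 (42.9%, against 19.7%). These controls were low on all arrays of DBA/2J, C57BL/6J and hippocampus_129S1SvImJ. Some genes named here because of this pattern, after their values were seen, are Dlgap4, a scaffold of the postsynaptic density, at 6.84 ± 0.15 in DBA/2J and 7.20 ± 0.18 in C57BL/6J with up to 8.36 elsewhere, and the membrane-traffic GTPase Rab10 at 6.80 ± 0.20 in DBA/2J and 6.64 ± 0.27 in C57BL/6J with up to 8.46 elsewhere. The phosphatase Dusp8 was at 6.59 ± 0.13 in DBA/2J and 6.08 ± 0.23 in C57BL/6J with up to 8.21 elsewhere. The neurofilament gene Nefl was high in both, at 8.27 ± 0.14 in DBA/2J and 8.31 ± 0.10 in C57BL/6J. It was not particular to them, with 8.18 in C3H/HeJ, 7.92 in hippocampus_129S1SvImJ and 6.26 to 6.67 in the rest.

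**Figure D5:**
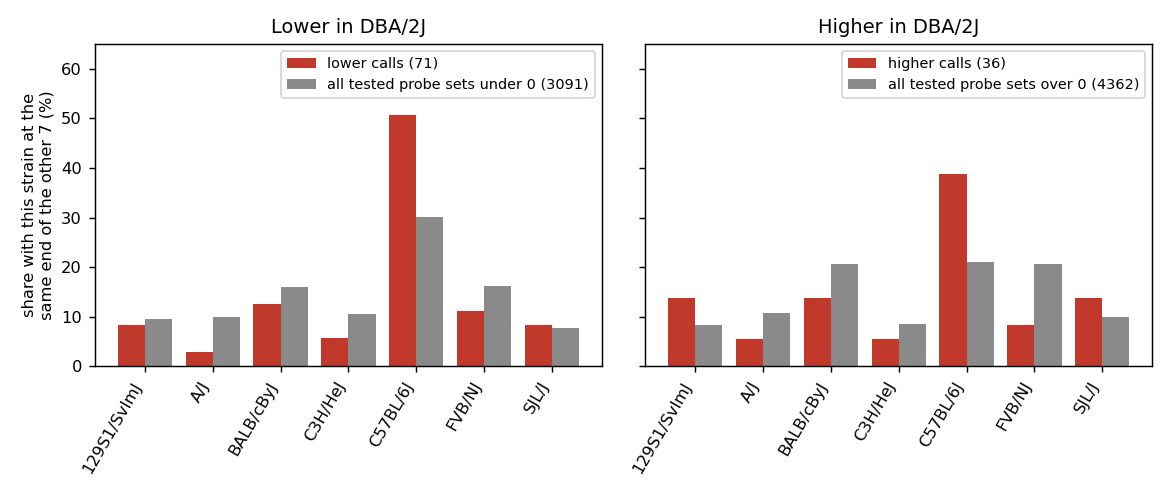
Share of probe sets (y axis, %) for which each of the other 7 strains (x axis) was at the same end as DBA/2J, for the 71 lower calls (left) and the 36 higher calls (right) in red and for all tested probe sets with a difference of the same sign in grey. C57BL/6J held 50.7% of the lower calls against 30.0% of all, and 38.9% of the higher calls against 21.1%.

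Several probe sets of a gene could be compared for 32 called genes. All tested probe sets of the gene had the same sign for 23 of them, and 2 or more were called for 9. Pdxdc1, a protein with a decarboxylase domain that was chosen after its values were seen, was the 1 gene called in both directions. On 1 of its 3 probe sets it had signals of 282.3, 289.4, 308.1 and 312.0 in DBA/2J, against 4.1 to 325.9 with a median of 12.6, a difference of 3.62 ± 0.23 (adjusted p = 1.57e-06). Adding 16 or 64 to the signals brought it to 2.62 or 1.68 (adjusted p = 3.58e-07 and 4.21e-07). Another had signals of 4.8, 6.6, 19.4 and 16.0 in DBA/2J, against 3.6 to 156.0 with a median of 120.6 (-2.77 ± 0.57, adjusted p = 0.0217), and the remaining one gave -1.34 ± 0.20 (adjusted p = 0.00252). On the first, DBA/2J read 8.22 ± 0.08, with C3H/HeJ next at 8.15 and BALB/cByJ at 7.88, while the other 5 strains read 2.94 to 3.61. Probe sets of 1 gene also gave unequal differences for Wnk1, Ddx6, Ank3 and Cpsf2, as described above. Grin2b, Slc32a1 and Irs2 each had 1 tested probe set, so no such comparison could be made. Probes could not be checked against sequence differences between strains, and the part of such differences in the signals was not tested.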

How the data were processed

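The deposited table holds 1 MAS5 intensity on a linear scale for each of 12488 probe sets and 32 arrays. Per the submitters' processing notes the authors made these intensities with MAS5, whose version is not given in the sources used here, nor are detection calls. The mean intensity with the extremes trimmed was 100.05 to 100.07 on every array, so no further scaling was done. Strain and array number came from the titles, and per the series design arrays 1 and 2 hold the first cRNA preparation and 3 and 4 the second. Genes were named from the platform's annotation (10855 probe sets with 1 symbol, 396 with several, 1193 with none), and 10839 matched RefSeq genes of GRCm38.p6, used for names and gene order only.

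After removal of 66 controls, signals under 1 were set to 1 (2.14% of values), log2 was taken, the 2 arrays of a preparation were averaged, and the brightest 60% by mean were tested (7453 probe sets, mean signal above 21.3; 6743 with 1 symbol, 5660 genes). limma 3.58.1 in R 4.3.3 fitted 8 strain means to the 16 values (lmFit, eBayes with trend, 8 residual degrees of freedom), and a contrast set DBA/2J minus the mean of the other 7. P-values are two-sided and Benjamini-Hochberg adjusted over all 7453. SDs are over 2 preparations. The number of arrays limits the precision.

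Genes are named by rule: the 12 highest and 12 lowest called probe sets with 1 symbol and both DBA/2J preparations outside the other 14, every called member of the gene lists, every measured gene of the list of DBA/2J alleles, and other probe sets of these genes. Other names were chosen after their values were seen. The members and lists were chosen with earlier results of these data known, and list counts carry no test. Preparation numbers pair the samples, per the series design: deviations of preparations from their strain mean correlated between strains at 0.109 to 0.557 over 28 pairs of strains (median 0.385), with DBA/2J at 0.170 to 0.470, and no 2 arrays held identical values. On simulated data of 7453 probe sets the fit recovered 71% of 100 changes of 1 and 96% of 100 changes of 2 on the log2 scale in DBA/2J, called 11 unchanged probe sets, and gave 0 wrong signs. The simulated noise was independent between preparations, and the other strains shared 1 mean at each probe set. The data lack both properties, so these rates need not hold for them. Alternatives covered normalization, filter, offset, block, day, variance trend and leaving out arrays, preparations and strains. 1 was added after the data were seen: leaving out the 11 arrays with high sense-strand controls, which include every array of BALB/cByJ.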

Additional observations from a re-analysis of the deposited data

Results flagged for a closer look

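Among 46 probe sets checked for 1 array far from the other 3 of DBA/2J, 1 stood out: on the first probe set given for Ddx6, array 4 read 5.89 on the log2 scale and the other 3 arrays 5.09 to 5.22. The gap took 0.833 of the range, above Dixon's critical value for 4 values, which chance exceeds in about 1 in 20 groups. All 4 arrays lay below the 28 arrays of the other strains.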

How the results depend on the processing

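The count of 107 probe sets was 90 to 142 under quantile or median scaling, other filters, offsets of 16 or 64, no variance trend and without the 11 arrays with high sense-strand controls (98, of which 80 were among the 107). With the replicate block, which the pairing of preparations supports, it was 318 (133 higher, 185 lower). With single arrays as units and the preparation as a random block it was 176, and with the day as a further block 730 (397 higher, 333 lower); the cause was not tested. Leaving out 1 array, preparation or strain gave 23 to 128: 86 to 125 without an array, 97 to 116 without a preparation of another strain, 91 to 128 without a strain, and 23 or 43 without DBA/2J preparation 1 or 2, where 1 DBA/2J value is left and is assumed to vary like the other strains. Of 63 called probe sets followed one by one, 41 kept their call under all 11 alternatives of processing and 12 under all 55 that left something out, and 0 changed sign. The block ended no call among the 107. For 18 of the 71 lower probe sets the DBA/2J mean lay under the median signal of its arrays, where an offset shrinks differences most.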

Other observations

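Some further calls concern neuronal RNA and cytoskeleton genes, chosen here after their values were seen. Mapt, which encodes the microtubule protein tau, had signals of 285.6, 262.8, 233.0 and 308.7 in DBA/2J on 1 of 3 probe sets, against 356.5 to 937.4 on the 28 arrays of the other strains, with no overlap (-0.95 ± 0.17, limma, adjusted p = 0.00777), and its other probe sets gave 0.33 and 0.14 and did not pass. Meg3, an imprinted long noncoding RNA, was lower on both called probe sets (-0.80 ± 0.12 and -0.53 ± 0.12, adjusted p = 0.00223 and 0.0396). Slc20a1, a sodium-dependent phosphate transporter, had signals of 291.6, 278.4, 282.5 and 267.0 in DBA/2J, against 128.9 to 233.5 elsewhere, again with no overlap (0.66 ± 0.13, adjusted p = 0.015). The largest difference of an unnamed probe set was 2.04 ± 0.14, on signals of 1210.4, 1426.5, 1089.5 and 1076.3 in DBA/2J, against 136.1 to 497.1 (adjusted p = 1.9e-06).

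Some called genes lie near each other in the RefSeq gene order. Another called gene was among the 5 tested genes on either side for 17 of the 85 called genes (20%), where 13.4% of 5654 tested genes had one, and no test was made of this. The groups are Cop1, Gas5 and Kifap3, and the pairs Mgst3 and Rgs5, Cplx2 and Thoc3, H2-K1 and H2-K2, Slc32a1 and Snhg11, Grin2b and Strap, Nudt19 and Klk8, and Ddx25 and Nrgn. Grin2b was lower (-2.23) and Strap higher (1.00 ± 0.20, adjusted p = 0.0213), while Slc32a1 (-2.03) and the noncoding Snhg11 (-1.24 ± 0.26, adjusted p = 0.0245) were both lower.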
